A study of Rattus with 9 samples.

Results

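Genes of epithelial-mesenchymal transition (EMT) were followed in rat extrahepatic bile duct, 10 of them chosen by name: the cadherins Cdh1 and Cdh2, the intermediate filament gene Vim, the matrix gene Fn1, and the transcription factor genes Snai1, Snai2, Zeb1, Zeb2, Twist1 and Twist2. They are 10 of the 23836 gene symbols measured, and each symbol was carried by 1 feature. Every feature row bearing one of these symbols was taken from every count matrix. The tissue was profiled by 10x Genomics 3' single-cell RNA sequencing (scRNA-seq), which counts unique molecular identifiers (UMIs), 1 for each captured mRNA molecule.

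Strain, age and sex of these rats are not given in the labels, and the general animal methods of the paper name Sprague-Dawley rats of 6 to 8 weeks and both sexes. The sham group held 3 samples of 1 library each, labelled sham 1, 2 and 3. The ctrl group were rats after liver transplantation (LT) with ischemic injury, sampled once on days 1, 3 and 7, each time with 3 libraries. The treat group were likewise transplanted and had the splenic and gastroduodenal arteries tied to raise arterial flow to the liver, sampled on the same days with 8 libraries altogether. No genotype or transgene is named for any group, and a further library of treat day 3 is not analysed here. Whether a sample's libraries stem from different animals is not stated, so their counts were summed and the sample was the unit. P-values therefore measure only the spread between these samples, which may be technical.

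In EMT, cells of an epithelial sheet loosen their contacts and take on features of mesenchymal cells. E-cadherin, the product of Cdh1, joins neighbouring epithelial cells at adherens junctions. N-cadherin, from Cdh2, serves the same purpose in mesenchymal and neural cells. The Snail, Zeb and Twist proteins bind E-box motifs in DNA and repress Cdh1, while vimentin and fibronectin are long-used mesenchymal markers. In the bile duct the biliary epithelial cells (BEC) form the lining, and fibroblasts, vascular smooth muscle cells (VSMC) and endothelial cells (EC) make up the wall, where several of these genes are normally active.

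After filtering, 139368 cells were kept, of which 16.3% fell in clusters that no marker list could name. Libraries held 311 to 12587 cells, with a median of 1923 to 6783.5 UMIs per cell. At ctrl day 3 a limit on haemoglobin transcripts removed 2472 of 2923 barcodes in 1 library and 3961 of 4312 in another, so that most ctrl day 3 cells came from a single library. No library pair shared more than 0.965% of its cell barcodes. Cell types were named from marker lists, with all 10 genes and the related gene lists kept out of the clustering, and are written as BEC-like, fibroblast-like and so on. Some clusters did not carry markers of their own class among their 10 leading genes by fold over other cells. None of the 3 BEC-like clusters, c1, c2 and c3, had a BEC marker there, and c1 and c3 each had 1 goblet marker, Clca1 and Fcgbp. The BEC-like values are therefore also given by cluster. Fibroblast-like cluster c12 likewise had no fibroblast marker there. Of the 4 macrophage-like clusters, c19 had the monocyte marker Spn and c20 the acinar markers Ctrb1, Prss1 and Cpa1, so macrophage-like values are also given for c6 and c10 alone. The BEC markers were present in BEC-like cells, where all 10 had UMIs and together reached 11585 to 18452 CPM in the 9 samples, where CPM are UMI counts scaled to a common total per sample and cell type. Because RNA was summed over cells, a lower total from fewer cells and one from less RNA per cell cannot be told apart where all cells are pooled. Levels in CPM are compared between samples or cell types, never between genes.

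Across cell types the cadherins had different leading types. Cdh1 had a median of 385 CPM in BEC-like cells, with a range over the samples of 272 to 552. The next types were mast-like cells at 30.3 CPM and macrophage-like cells at 14.0 CPM, or 19.2 CPM in clusters c6 and c10 alone. BEC-like cells exceeded macrophage-like cells in 9 of 9 samples (p = 0.00391, the smallest that 9 samples allow, and adjusted p = 0.012 over 40 neighbouring pairs, exact sign-flip permutation test), and so they did with c6 and c10 alone (adjusted p = 0.012 by the same permutation test). Cdh2 was led by VSMC-like cells, at a median of 33.4 CPM, and fibroblast-like cells, at 23.3 CPM. These medians pool sham and transplanted samples. In each sham sample Cdh2 was lower in VSMC-like than in fibroblast-like cells, with 2 UMIs in all sham VSMC-like cells. Fibroblast-like cells exceeded BEC-like cells in Cdh2 in 9 of 9 samples. Cdh2 levels in BEC-like cells stayed between 0.876 and 7.92 CPM in all 9 samples.

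**Figure D1:**
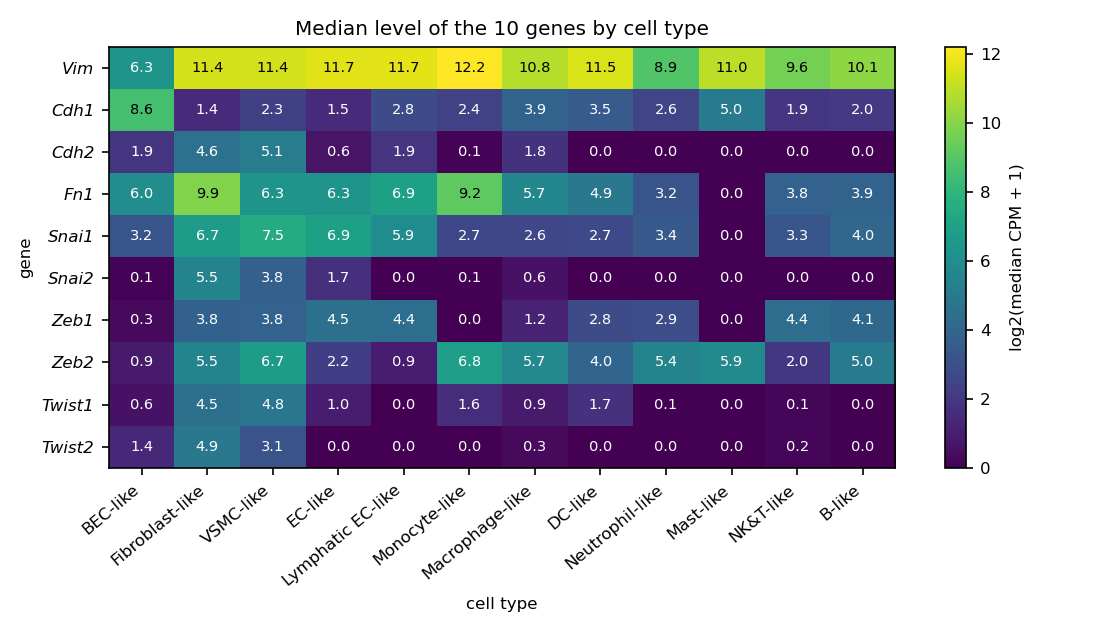
Median level of each gene (rows) in 12 marker-named cell types (columns), as log2(median CPM + 1) over the samples with at least 20 cells of that type. Cdh1 is highest in BEC-like cells, where Vim has its lowest level of the 12 types, and Cdh2, Snai1 and Twist1 are highest in VSMC-like cells. Medians pool sham and transplanted samples, and in each sham sample Cdh2 and Twist1 are higher in fibroblast-like than in VSMC-like cells.

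Of the mesenchymal structural genes, Vim was lowest in the lining and Fn1 was not. Vim, which encodes the filament of mesenchymal, endothelial and immune cells, was highest in monocyte-like cells at a median of 4705 CPM and lowest of the 12 types in BEC-like cells at 79.5 CPM. EC-like cells, at 3222 CPM, and fibroblast-like cells, at 2698 CPM, did not differ beyond their spread (adjusted p = 0.0611, exact sign-flip permutation test). Fn1, which encodes a matrix glycoprotein, was led by fibroblast-like cells at 934 CPM and followed by monocyte-like cells at 579 CPM. In Fn1 the BEC-like and EC-like cells did not differ beyond their spread (adjusted p = 0.223, exact sign-flip permutation test).

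Each transcription factor gene had its own order. Snai1, encoding Snail, had its highest median in VSMC-like cells at 181 CPM, followed by EC-like cells at 119.8 CPM and fibroblast-like cells at 105 CPM, and the last pair did not differ (adjusted p = 0.454, exact sign-flip permutation test). Snai2, encoding Slug, was led by fibroblast-like cells at 43.3 CPM. Zeb1 was highest in EC-like cells at 21.6 CPM, which did not differ from NK&T-like cells at 19.4 CPM (adjusted p = 0.571, exact sign-flip permutation test). Zeb2, in contrast, was led by monocyte-like cells at 110.4 CPM and VSMC-like cells at 103 CPM. Twist1 was highest in VSMC-like cells at 26.8 CPM, followed by fibroblast-like cells at 21.9 CPM. Twist2 was highest in fibroblast-like cells at 28.5 CPM. By median over sham and transplanted samples, the relatives Snai1 and Snai2, Zeb1 and Zeb2, and Twist1 and Twist2 thus had different leading types. In each sham sample, however, Twist1 was higher in fibroblast-like than in VSMC-like cells. Among the tested types, fibroblast-like cells led both Twist1 and Twist2. Leads held by VSMC-like and monocyte-like cells, which not every sample held in number, were not tested.

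Among 10518 genes, those whose mean levels over 13 named cell types were most like these genes were sought by Pearson's r. The measure was the correlation of log2(CPM + 10) over the 13 types, which share libraries, and it is a description only. Lox, which encodes a collagen cross-linking enzyme, was most like Snai2 (r = 0.996), and Slit2, which encodes a guidance ligand, was most like Twist2 (r = 0.996). Sema5a, encoding a semaphorin, was most like Twist1 (r = 0.991), and the basement membrane collagen gene Col4a1 was most like Snai1 (r = 0.968). For Cdh2 the nearest genes were LOC108348172 (r = 0.988) and the collagen gene Col4a5 (r = 0.98). The patterns of Fn1 and Vim had no such near match, their closest genes being Rab9a (r = 0.878) and Tacc1 (r = 0.896).

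Whether the duct lining changed in these genes post-LT was asked by summing the UMIs of BEC-like cells in each sample. Of the 10 genes, 8 passed the filter on low counts in BEC-like cells. Snai2 and Zeb1 did not, with levels of 0 to 0.641 and 0 to 0.889 CPM over the 9 samples. In ctrl against sham, 1 gene rose, Twist2, and 1 fell, Cdh2. Of all 13057 genes tested, 11.7% were called, 5.85% as higher and 5.82% as lower. The levels of Vim, Cdh1, Fn1, Snai1, Twist1 and Zeb2 did not pass the test.

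Cdh2 in BEC-like cells was at 4.09, 7.92 and 7.06 CPM in sham 1, 2 and 3. It was at 0.876, 1.56 and 2.41 CPM at ctrl days 1, 3 and 7, and at 2.62, 3.51 and 2.50 CPM at treat days 1, 3 and 7. All 6 transplanted samples lay below all 3 sham samples in these CPM. On the normalized scale that edgeR used, treat day 3, at 3.84 CPM, lay above sham 1, at 3.40 CPM. The counts were low, at 11 to 132 UMIs a sample. Against sham, ctrl differed by a log2 fold change of -1.87 ± 0.40 (SE; adjusted p = 0.0294, edgeR's quasi-likelihood test with Benjamini-Hochberg adjustment) and treat by -1.01 (edgeR adjusted p = 0.187). The call in ctrl was lost without sham 2 or 3 or ctrl day 1 or 3, with edgeR adjusted p of 0.103 to 0.149.

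By cluster, Cdh2 passed the filter on low counts in c2 alone. There it was at 4.52, 8.83 and 7.26 CPM in sham, at 1.07, 2.09 and 1.82 CPM at ctrl days 1, 3 and 7, and at 2.97, 2.39 and 0.496 CPM at treat days 1, 3 and 7. All transplanted samples lay below sham. In c2 the log2 difference was -2.39 ± 0.48 in ctrl and -1.57 ± 0.45 in treat (SE; edgeR adjusted p = 0.0107 and 0.0414), in a cluster where 24.8% and 20.6% of all genes were called. The counts were low there, at 7, 103 and 125 Cdh2 UMIs in sham 1, 2 and 3. Ctrl days 1, 3 and 7 had 43, 6 and 3 UMIs, and treat days 1, 3 and 7 had 82, 6 and 1. In c1 Cdh2 lay at 3.45 to 13.2 CPM in sham, from 1 to 3 UMIs a sample, and at 1.12 to 4.74 CPM post-LT. These ranges overlapped. In c3 it lay at 1.94 to 3.18 CPM in sham, from 3 or 4 UMIs a sample, and at 0 to 1.25 CPM post-LT.

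Twist2, which encodes a bHLH repressor active in dermal and connective tissue mesenchyme, was at 0.682, 0.815 and 1.28 CPM in the sham samples. It was at 3.93, 6.67 and 2.12 CPM at ctrl days 1, 3 and 7, and at 1.34, 3.03 and 1.69 CPM at treat days 1, 3 and 7. Every transplanted sample lay above every sham sample, treat day 1 only narrowly. Against sham the log2 difference was 2.16 ± 0.38 in ctrl (SE; edgeR adjusted p = 0.0183) and 1.10 ± 0.39 in treat (edgeR adjusted p = 0.167). Sham 1 had 2 Twist2 UMIs in all, and the libraries of ctrl day 1 ranged from 1.09 to 7.03 CPM. The call was lost without sham 2 or 3 or ctrl day 1 or 3, with edgeR adjusted p of 0.0552 to 0.0971. It was also lost when each library was a sample of its own (edgeR adjusted p = 0.0513) and when presumed doublets were kept (log2 1.45, edgeR adjusted p = 0.0626). In none of the 3 BEC-like clusters did Twist2 pass the filter on low counts, so it has no test there. Its sham and ctrl ranges overlapped in each, at 0 to 4.39 and 2.33 to 3.82 CPM in c1, at 0 to 1.16 and 0.607 to 3.42 CPM in c2, and at 1.56 to 2.38 and 1.55 to 14.1 CPM in c3.

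**Figure D2:**
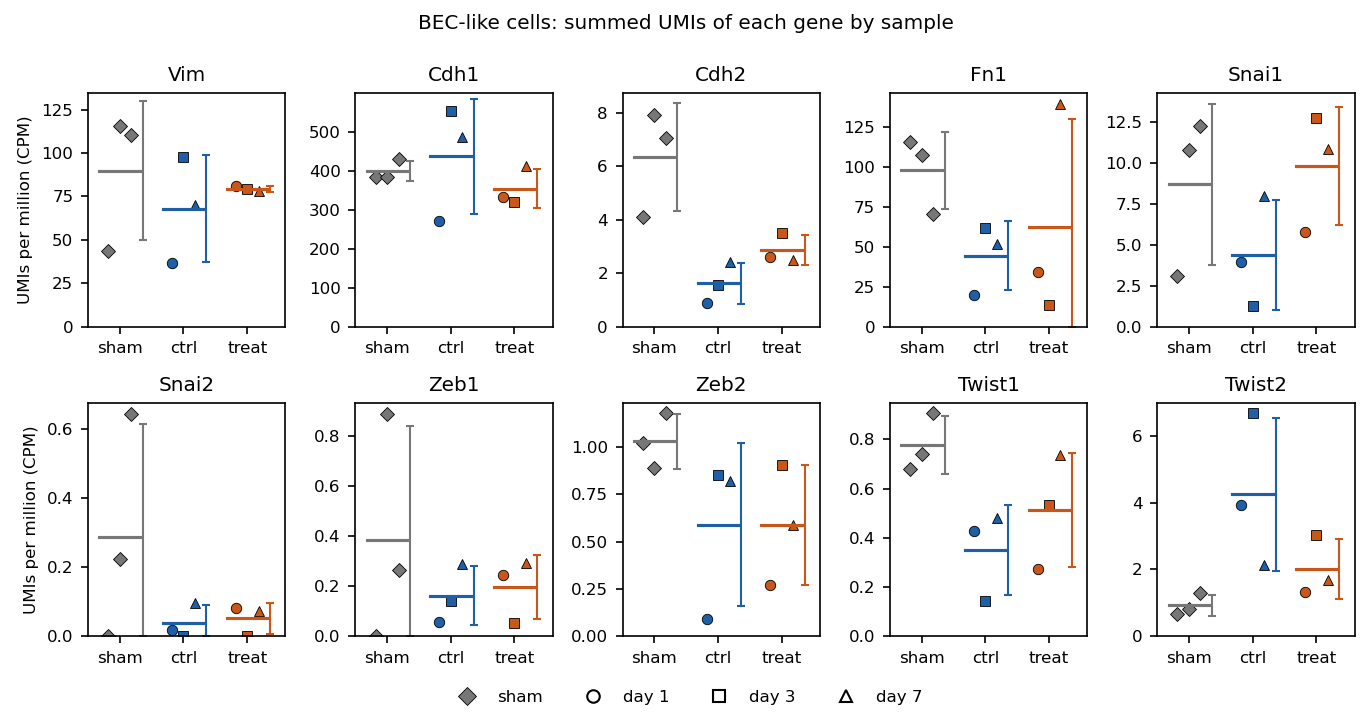
Level of each of the 10 genes in BEC-like cells, in CPM on a linear axis, by group. Points are samples (diamond sham, circle day 1, square day 3, triangle day 7), lines are group means and bars are SD (n = 3). In Cdh2 the 3 ctrl samples lie at 0.876 to 2.41 CPM, below all sham samples, and in Twist2 at 2.12 to 6.67 CPM, above them.

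Cdh1 itself gave no call in the lining. It was at 384, 385 and 430.3 CPM in sham, at 272, 552 and 486 CPM at ctrl days 1, 3 and 7, and at 333, 318 and 411 CPM at treat days 1, 3 and 7. The ctrl samples spanned the whole sham range, with day 1 the lowest and day 3 the highest. The log2 difference from sham was 0.31 ± 0.18 in ctrl (SE; edgeR adjusted p = 0.297) and 0.03 in treat (edgeR adjusted p = 0.957).

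Vim in BEC-like cells was at 43.6, 116 and 110.3 CPM in sham. It was at 36.3, 97.9 and 69.9 CPM at ctrl days 1, 3 and 7 and at 81.1, 79.5 and 77.9 CPM at treat days 1, 3 and 7. The groups overlapped, with sham 1 and ctrl day 1 lowest. The log2 fold change was -0.30 ± 0.41 in ctrl and 0.00 ± 0.40 in treat (SE; edgeR adjusted p = 0.661 and 0.998). Free RNA measured in empty barcodes would account for an estimated 27.9 to 69.1% of the Vim UMIs of BEC-like cells in a sample, against 0.161 to 0.764% of their Cdh1 UMIs and 1.59 to 5.20% of their Cdh2 UMIs. Its part in the Vim values was not tested beyond subtracting it, which left the treat difference at -0.03.

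Fn1 in BEC-like cells was at 116, 107 and 70.2 CPM in sham, at 19.9, 61.6 and 51.5 CPM at ctrl days 1, 3 and 7, and at 34.1, 13.5 and 139 CPM at treat days 1, 3 and 7. All ctrl samples lay below sham, while treat spanned it, with day 7 the highest sample of all. The log2 fold change in ctrl was -0.92 ± 0.57 (SE; edgeR adjusted p = 0.323). In cluster c3 alone Fn1 was lower in ctrl, with a log2 difference of -2.16 ± 0.45 (SE; edgeR adjusted p = 0.0388), where 2.56% of all genes were called. It was at 251, 477 and 373 CPM there in sham and at 26.6, 67.7 and 195 CPM at ctrl days 1, 3 and 7, all below sham. In c2 Fn1 was at 11.0, 60.0 and 47.7 CPM in sham and at 17.7, 74.7 and 68.0 CPM at ctrl days 1, 3 and 7. In c1 it was at 0, 37.9 and 96.6 CPM in sham and at 15.3, 32.0 and 33.8 CPM on those ctrl days. The groups overlapped in both c1 and c2, where Fn1 was not called in ctrl. Snai1 was at 3.07, 10.8 and 12.2 CPM in sham and at 3.97, 1.28 and 7.96 CPM at ctrl days 1, 3 and 7, and the groups overlapped. Zeb2 and Twist1 stayed at or below 1.18 CPM in every BEC-like sample.

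Between days 7 and 1 post-LT, 0 of the 8 genes tested passed edgeR's test in BEC-like cells, against 14.7% of all genes, with 1 at an unadjusted p under 0.05 and 0 by DESeq2. The nearest were Zeb2 with a log2 fold change of 1.77 ± 0.55 (SE; edgeR adjusted p = 0.0689) and Fn1 with 1.57 ± 0.69 (SE; edgeR adjusted p = 0.158). In treat against sham 0 of the 8 passed by edgeR, against 1.58% of all genes, with 2 at an unadjusted p under 0.05 and 0 by DESeq2. In treat against ctrl 0 of 8 passed by edgeR, against 0% of all genes, with 1 at an unadjusted p under 0.05 and 0 by DESeq2. Of all 13057 genes, 4360, 2828 and 1493 had an unadjusted p under 0.05 in these comparisons, in that order.

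The makeup of the BEC-like cells shifted at the same time, and its part in these results was not tested. Cluster c1 was 4.77, 6.39 and 5.11% of BEC-like cells in sham 1, 2 and 3. It was 3.24, 29.9 and 86.9% at ctrl days 1, 3 and 7, and 10.9, 84.4 and 92.7% at treat days 1, 3 and 7. Cells led by Scgb1c1 and Ttr were 35.3 to 75.5% of BEC-like cells in sham and 1.18 to 19.3% post-LT. Without them the Cdh2 difference in ctrl was -2.06 (edgeR adjusted p = 0.068) and the Twist2 difference 1.52 (edgeR adjusted p = 0.0877). The fibroblast markers, 9 of 9 of which had UMIs, summed to 51.8 to 590 CPM in sham BEC-like cells, 10.3 to 64.5 CPM in ctrl and 55.5 to 125 CPM in treat. Other marker lists moved in these cells too. The 7 goblet markers summed to 2991 to 3516 CPM in sham, 4399 to 6944 CPM in ctrl and 2989 to 4334 CPM in treat. The 10 neutrophil markers summed to 4.74 to 12.7 CPM in sham, 203 to 322 CPM in ctrl and 51.8 to 278 CPM in treat. For the 7 monocyte markers the sums were 2157 to 2307, 3835 to 5020 and 2986 to 3595 CPM, and for the 7 lymphatic EC markers 18.1 to 63.8, 4.90 to 10.1 and 8.21 to 20.2 CPM, in the same order of groups. The part of these lists in the results was not tested.

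Related genes were followed as lists in the same cells, where 5.85% of all genes were higher and 5.82% lower in ctrl against sham. In that comparison, the list of other cadherins had 1 of 6 tested genes higher, Cdh17 (log2 1.31), an intestinal and hepatobiliary cadherin, and 3 lower. Those were Cdh3, encoding P-cadherin (log2 -1.85), Cdh11, a mesenchymal cadherin (log2 -2.39), and Cdh13, encoding T-cadherin (log2 -1.99). Its median was -1.24, against -0.03 for all genes. Of the other mesenchymal transcription factors, 2 of 6 fell and none rose, Tcf21 (log2 -3.46) and Osr1 (log2 -3.19), both regulators of mesenchymal progenitors. The adherens junction and epithelial list had 1 of 18 higher, the recycling GTPase gene Rab25 (log2 0.61), and a median of 0.25. Of the partners and corepressors of the EMT factors, 1 of 17 fell, the E-protein gene Tcf4 (log2 -1.20), and of the vimentin partners 1 of 9 rose, the moesin gene Msn (log2 1.31). None of the 6 fibronectin receptor genes tested passed. In treat against sham, edgeR called no gene of these lists in BEC-like cells.

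Single cells of the lining were then asked how often they carried these transcripts, with each cell thinned to 2000 UMIs so that depth was equal. Between 341 and 3346 BEC-like cells a sample were deep enough and 3140 in all were not. A Vim UMI was found in 6.16, 16.3 and 15.3% of sham BEC-like cells, in 5.23, 11.6 and 9.14% of ctrl cells at days 1, 3 and 7, and in 11.8, 12.1 and 11.8% of treat cells. The 6 transplanted samples averaged 10.3% ± 2.7 (SD, n = 6) and sham 12.6% ± 5.6 (SD, n = 3), a difference of -2.32 percentage points (p = 0.393 by a two-sided exact permutation test). Without thinning the share was 14.6 to 35.6%. In fibroblast-like cells it was 88.1 to 98.8% at the same thinned depth.

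A share of this size also occurred in an unnamed cluster led by tuft cell markers, another epithelial cell of the duct, in which 6.80 to 17.6% of thinned cells had a Vim UMI over 8 samples. Median depth was 1185 to 2755 UMIs there and 3886 to 11018.5 UMIs in BEC-like cells. The BEC-like share lay within the range of that cluster or just below it. In BEC-like cells the Vim UMIs lay above the free-RNA estimate in 9 of 9 samples, from 128 UMIs against 88.4 in sham 1 to 2974 against 831 at treat day 1. The same estimate reached 157% of the Snai2 UMIs and 125% of the Zeb2 UMIs of these cells, and its error was not measured. The source of the Vim UMIs was not tested. A Cdh1 UMI was found in 39.5 to 61.0% of thinned BEC-like cells and in at most 0.466% of thinned fibroblast-like cells.

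**Figure D3:**
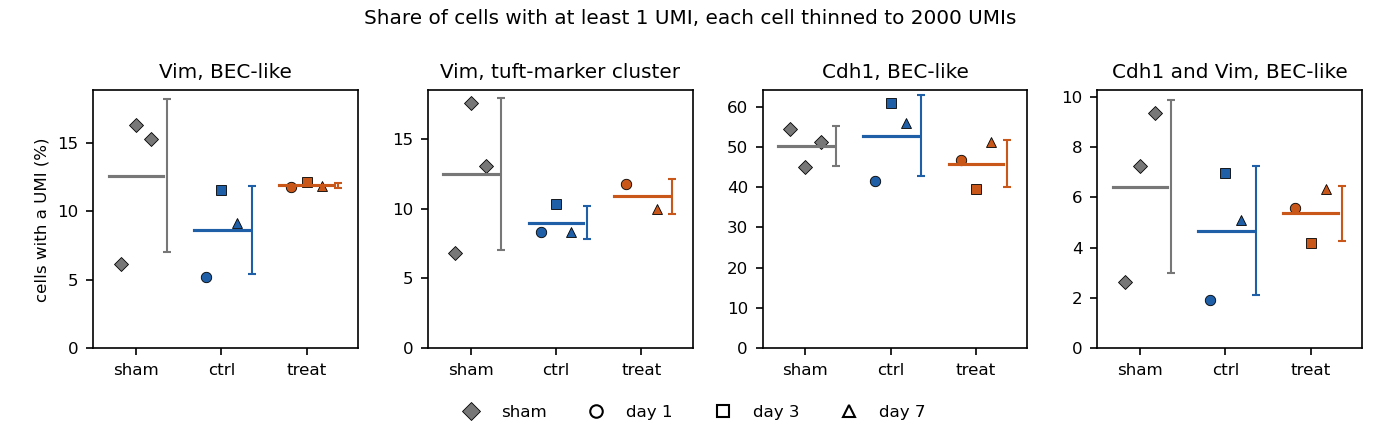
Percentage of cells with at least 1 UMI after thinning to 2000 UMIs a cell, by group: Vim, Cdh1, and Cdh1 together with Vim in BEC-like cells, and Vim in the tuft-marker cluster. Points are samples, lines are means and bars are SD. The Vim share of BEC-like cells runs from 5.23 to 16.3% over all groups, and that of the tuft-marker cluster from 6.80 to 17.6%.

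Cells with both Cdh1 and Vim made up 2.64, 7.24 and 9.37% of sham BEC-like cells, 1.91, 6.97 and 5.12% at ctrl days 1, 3 and 7, and 5.59, 4.18 and 6.33% at treat days 1, 3 and 7. In each sample this lay near the product of the single shares, which ran from 2.17 to 7.83%. Transplanted and sham samples differed by -1.40 percentage points (p = 0.405 by the same exact permutation test). Cells with both Cdh1 and Cdh2 were at most 0.726%. For Twist2 the transplanted samples were 0.69 percentage points higher and for Twist1 they differed by -0.219 percentage points (exact permutation p = 0.0476 and 0.0357, both with adjusted p = 0.286 over 12 shares), and neither passed after adjustment.

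Fibroblast-like cells carried all 10 genes above the filter, and 4 of them passed in ctrl against sham. Cdh2 rose, and Twist2, Zeb1 and Zeb2 fell. Of all 11692 genes, 17.6% were called, 9.22% as higher and 8.39% as lower. Fibroblast-like cells pooled clusters c11, c12 and c13, which differed in these genes. Over all samples, in that order, Cdh2 was at 17.0, 27.1 and 26.9 CPM and Twist2 at 46.7, 28.4 and 25.6 CPM. Zeb1 was at 22.4, 9.96 and 13.1 CPM and Zeb2 at 76.2, 23.9 and 41.2 CPM. None of these clusters was fitted alone, so the part of cluster makeup was not tested. Sham 1 held only 91 fibroblast-like cells, with 7 Cdh2, 29 Twist2, 19 Zeb1 and 80 Zeb2 UMIs in all. Cdh2 was at 10.7, 16.3 and 17.4 CPM in sham, at 23.3, 29.3 and 48.3 CPM at ctrl days 1, 3 and 7, and at 27.5, 18.8 and 27.6 CPM at treat days 1, 3 and 7. All transplanted samples lay above sham, treat day 3 by the least. In log2 terms the difference was 1.25 ± 0.22 in ctrl (SE; edgeR adjusted p = 0.0101) and 0.82 ± 0.22 in treat (SE; edgeR adjusted p = 0.075).

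Twist2 ran the other way in these cells. It was at 44.3, 38.4 and 46.3 CPM in sham, at 20.5, 24.2 and 16.1 CPM at ctrl days 1, 3 and 7, and at 28.8, 28.5 and 20.1 CPM at treat days 1, 3 and 7. No transplanted sample reached the lowest sham sample. Twist2 differed from sham by a log2 value of -0.86 ± 0.15 in ctrl (SE; edgeR adjusted p = 0.0104) and -0.54 ± 0.15 in treat (SE; edgeR adjusted p = 0.0836).

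Zeb1, encoding a zinc-finger repressor of Cdh1, was at 29.0, 16.6 and 24.7 CPM in sham, at 4.38, 12.7 and 9.06 CPM at ctrl days 1, 3 and 7, and at 10.3, 9.35 and 12.7 CPM at treat days 1, 3 and 7. All transplanted samples lay below sham. Zeb1 differed from sham by a log2 value of -1.19 ± 0.28 in ctrl (SE; edgeR adjusted p = 0.0252). Its relative Zeb2 was at 122, 56.7 and 69.7 CPM in sham, at 16.1, 49.6 and 44.8 CPM at ctrl days 1, 3 and 7, and at 24.6, 35.0 and 40.9 CPM at treat days 1, 3 and 7. Sham 1 was by far the highest, and all transplanted samples were below sham. Zeb2 differed from sham by a log2 value of -0.99 ± 0.27 in ctrl (SE; edgeR adjusted p = 0.0382) and -1.03 ± 0.26 in treat (SE; edgeR adjusted p = 0.0685). In treat against sham 0 of 10 passed by edgeR, against 3.9% of all genes, with 5 at an unadjusted p under 0.05 and 4 by DESeq2, and in treat against ctrl 0 of 10 did, against 0.0171%, with 0 at an unadjusted p under 0.05 and 0 by DESeq2. Of all 11692 genes, 2635 and 1625 had an unadjusted p under 0.05 in these comparisons, in that order. No share of all genes called by DESeq2 is given, so its counts have no background to be compared with. Without sham 3 or ctrl day 7 all 4 calls of ctrl against sham were lost (edgeR adjusted p of 0.0538 to 0.129). They were also lost with no term for day in the fit (0.073 to 0.245). Twist2 and Zeb2 also lost theirs without ctrl day 3, Zeb1 and Zeb2 without ctrl day 1, and Zeb2 without treat day 7 (edgeR adjusted p of 0.053 to 0.173). The fibroblast markers moved too, summing to 51128 to 63644 CPM in sham, 9071 to 49119 CPM in ctrl and 26518 to 57474 CPM in treat, and their part in these results was not tested.

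**Figure D4:**
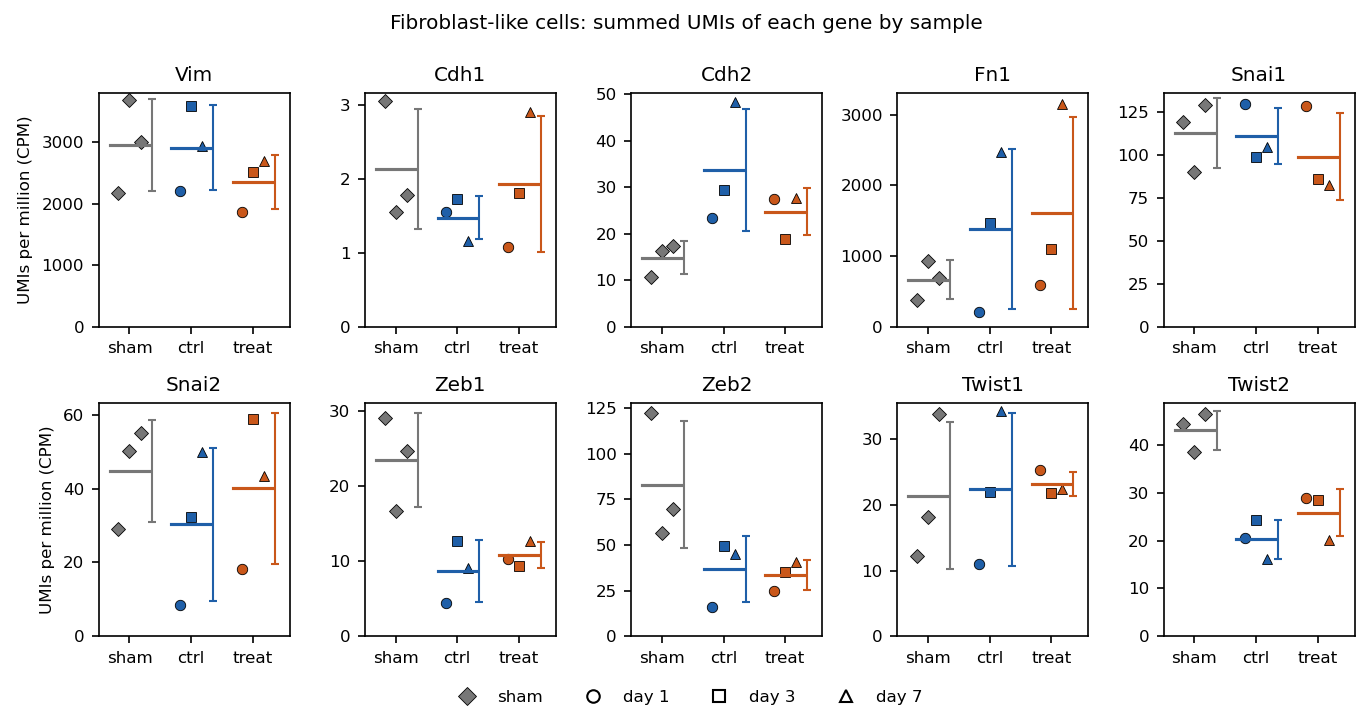
Level of each of the 10 genes in fibroblast-like cells, in CPM on a linear axis, by group, with points for samples (diamond sham, circle day 1, square day 3, triangle day 7), lines for means and bars for SD (n = 3). Twist2, Zeb1 and Zeb2 lie lower in every transplanted sample than in sham, and Fn1 is lowest on day 1 and highest on day 7 of each transplanted group.

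Time after LT was compared in fibroblast-like cells as well, where Twist2 was again among the called genes. Between days 7 and 1, 2 genes rose and 2 fell, of 10, against 29.9% of all genes called, 14.5% as higher and 15.4% as lower. In clusters c11, c12 and c13, over all samples, Fn1 was at 545, 562 and 1825 CPM and Snai2 at 57.3, 17.6 and 44.5 CPM. Snai1 was at 136, 129 and 80.8 CPM there. The part of cluster makeup was not tested. Fn1 was at 208, 1463 and 2470.3 CPM at ctrl days 1, 3 and 7 and at 590.5, 1090.0 and 3155 CPM at treat days 1, 3 and 7, beside 372, 934 and 689 CPM in sham. Both groups were lowest on day 1 and highest on day 7, a log2 difference between those days of 2.71 ± 0.51 (SE; edgeR adjusted p = 0.00681). Snai2 was at 8.63, 32.2 and 50.0 CPM at ctrl days 1, 3 and 7 and at 18.2, 58.7 and 43.3 CPM at treat days 1, 3 and 7, beside 29.0 to 55.1 CPM in sham. Day 1 was below sham in both groups, and the log2 difference between days 7 and 1 was 1.69 ± 0.37 (SE; edgeR adjusted p = 0.0114). Snai1 fell by 0.70 ± 0.22 and Twist2 by 0.66 ± 0.18 on the log2 scale between those days (SE; edgeR adjusted p = 0.0411 and 0.0276). The calls of Fn1 and Snai2 were lost without ctrl day 1 or day 7 (edgeR adjusted p of 0.0628 to 0.148). With library-size scaling the calls of Snai1 and Twist2 were lost, at log2 differences of -0.47 and -0.44 (edgeR adjusted p = 0.144 and 0.127), and likewise with no term for transplanted group in the fit (0.0623 and 0.0635). Snai1 lost its call with no filter on low counts (edgeR adjusted p = 0.0515) and Twist2 with each library as a sample (log2 -0.48, edgeR adjusted p = 0.095). Twist2 also lost its call without sham 2 or 3 or any day 1 or day 7 sample (edgeR adjusted p of 0.0566 to 0.216), and Snai1 without any sample other than sham 1 or 2.

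Vim was at 2179, 3680.2 and 3001 CPM in sham fibroblast-like cells, at 2206, 3588 and 2932 CPM at ctrl days 1, 3 and 7, and at 1858, 2508 and 2698 CPM at treat days 1, 3 and 7. The groups overlapped, and no comparison passed. Snai1 at 82.7 to 129.9 CPM and Twist1 at 10.9 to 34.3 CPM likewise overlapped between sham and the transplanted groups. Cdh1 was at 1.07 to 3.06 CPM, of which free RNA would account for a median of 79.8%.

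The related lists were followed in fibroblast-like cells as well. Between days 7 and 1, where 14.5% of all genes were higher and 15.4% lower, the other cadherins had 4 of 5 tested genes higher and none lower, with a median of 2.21 against 0.03 for all genes: Cdh13 (log2 3.19), Cdh3 (log2 2.21), Cdh11 (log2 1.95) and the endothelial cadherin Cdh5 (log2 2.97). Of the vimentin partners, 5 of 9 rose, among them the muscle filament gene Des (log2 2.89), the ezrin gene Ezr (log2 1.45), Macf1 (log2 0.86) and Msn (log2 0.83). Of the fibronectin receptors, 1 of 8 rose, the integrin gene Itga5 (log2 0.79), a share near that background. In ctrl against sham, against 9.22% of all genes higher and 8.39% lower, 2 of these 8 rose, Itga5 (log2 1.21) and the syndecan gene Sdc4 (log2 1.06), and Itgb6 fell (log2 -1.95). Of the other mesenchymal transcription factors, the homeobox gene Meox2 fell in ctrl (log2 -1.98) and in treat (log2 -1.32) against sham, comparisons that share the sham samples. In treat against sham 3.9% of all genes were called in either direction. In fibroblast-like cells the VSMC marker sums were 245 to 1299, 154 to 1874 and 755 to 1371 CPM in sham, ctrl and treat. The EC sums were 73.0 to 130, 74.9 to 87.8 and 88.8 to 120 CPM in that order. The mesothelial sums were 4.09 to 18.3, 9.14 to 202 and 4.21 to 178 CPM. The part of such markers in the rises of Cdh5 and Des was not tested.

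VSMC-like cells, the contractile cells of vessel walls, were fitted although ctrl day 3 held only 18 of them, a choice made after the data were seen. Cdh2 was at 2.35, 3.39 and 0 CPM in sham, at 45.8 and 39.2 CPM at ctrl days 1 and 7, and at 46.3, 39.0 and 27.7 CPM at treat days 1, 3 and 7. All transplanted samples lay above all sham samples, and the 18 cells of ctrl day 3 gave 7 UMIs, or 25.3 CPM. Only 2 Cdh2 UMIs stood in sham, of 878216, against 221 of 5312773 in ctrl, a ratio of 18.3 with a counting interval of 5.00 to 152, and 153 of 4058852 in treat, a ratio of 16.6 with an interval of 4.50 to 138. These intervals cover counting error only. Cluster c15, led by Des, Cox4i2 and Rgs5, kept further cells that stayed unnamed and were not fitted. These held 1 and 10 Cdh2 UMIs in sham 2 and 3, beside 1093 and 1422 Vim UMIs. At ctrl days 1 and 7 they held 19 and 32, beside 4843 and 5674 Vim UMIs. At treat days 1, 3 and 7 the Cdh2 UMIs were 24, 26 and 17, beside 7178, 4915 and 6247 Vim UMIs.

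The fitted log2 difference of Cdh2 in VSMC-like cells was 3.99 ± 0.66 in ctrl and 3.98 ± 0.66 in treat (SE; edgeR adjusted p = 0.00802 and 0.0215), against 4.04% and 1.13% of 7591 genes called, 1.12% and 0.487% as higher. With presumed doublets kept, it was 1.76 in ctrl and 1.41 in treat, the latter with edgeR adjusted p = 0.0904, and with no term for day the treat call was lost as well (log2 3.99, edgeR adjusted p = 0.0669). The ctrl call was lost without sham 2 or ctrl day 7 and the treat call without sham 1, sham 2 or any treat sample, at edgeR adjusted p of 0.0579 to 0.15. VSMC markers summed to 19555 to 63508 CPM in sham, 3331 to 21714 CPM in ctrl with ctrl day 3 counted, and 10448 to 22506 CPM in treat, and their part in the result was not tested.

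**Figure D5:**
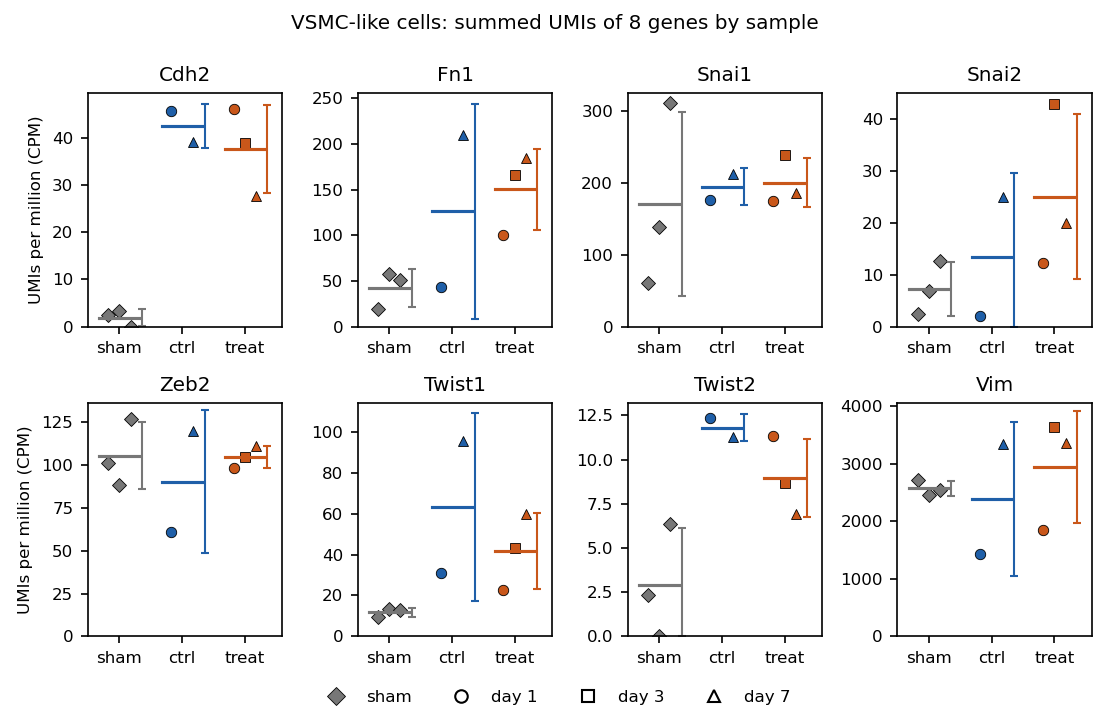
Level of 8 of the genes in VSMC-like cells, in CPM on a linear axis, by group, with points for samples (diamond sham, circle day 1, square day 3, triangle day 7), lines for means and bars for SD. Ctrl day 3, with 18 cells, is left out, and Cdh2 lies at 0 to 3.39 CPM in sham and at 27.7 to 46.3 CPM in the transplanted samples shown.

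The other genes did not pass edgeR's test in VSMC-like cells. Twist1 was at 9.39, 13.6 and 12.7 CPM in sham, at 30.9 and 95.6 CPM at ctrl days 1 and 7, and at 22.7, 43.4 and 59.7 CPM at treat days 1, 3 and 7. These transplanted samples lay above sham, while the 18 cells of ctrl day 3 were at 7.22 CPM. Fn1 was at 18.8, 57.7 and 50.8 CPM in sham and at 43.2 to 209.5 CPM in the transplanted samples shown. Log2 differences of the 8 uncalled genes ran from -0.87 to 2.55 in ctrl and from -1.05 to 1.91 in treat (smallest edgeR adjusted p = 0.101 and 0.0548). Between days 7 and 1, 0 of 9 passed by edgeR, beside 250 of 7591 genes. Nearest were Vim (log2 1.09 ± 0.28) and Fn1 (log2 1.65 ± 0.44) (SE; edgeR adjusted p = 0.0605 and 0.0701). In ctrl, in treat and between days, 4 of 9 had an unadjusted p under 0.05, beside 1406, 1123 and 1257 of 7591 genes. DESeq2 called 1, 2 and 1 of the 9, and no share of all genes called by DESeq2 is given beside these counts.

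In EC-like cells, in macrophage-like cells and in NK&T-like cells edgeR called no gene of the set in any comparison. In the order of these types, the background was 3.14, 4.19 and 3.6% of genes in ctrl against sham, and 0.429, 1.72 and 3.47% in treat against sham. It was 0, 0 and 0.0114% in treat against ctrl and 3.95, 0.117 and 1.7% between days 7 and 1. At an unadjusted p under 0.05, these types together had 7 tests in ctrl against sham, 4 in treat against sham, 0 in treat against ctrl and 2 between the days, and DESeq2 called 0, 1, 0 and 1. In clusters c6 and c10 of the macrophage-like cells alone, edgeR called 1 of 7 genes in ctrl against sham, against 9.59% of all genes there. That gene was Cdh2, which was at 12.4, 7.63 and 12.2 CPM in sham and at 4.40, 1.73 and 0.983 CPM at ctrl days 1, 3 and 7, beside 0.804 to 4.69 CPM in treat. All transplanted samples lay below sham, and ctrl differed by a log2 value of -2.24 ± 0.55 (SE; edgeR adjusted p = 0.0374). Counts were low, as all macrophage-like cells together held 10, 14 and 19 Cdh2 UMIs in sham 1, 2 and 3. At ctrl days 1, 3 and 7 they held 9, 15 and 19. Free RNA would account for an estimated 1.05 to 32.5% of these UMIs in a sample. The fit of c6 and c10 was not repeated with samples left out. Fn1 in EC-like cells came nearest in time, at 24.1, 206 and 294 CPM at ctrl days 1, 3 and 7 and 76.1, 125 and 167 CPM at treat days 1, 3 and 7. Both groups were higher on day 7 than on day 1, with a log2 difference of 2.18 ± 0.53 (SE; edgeR adjusted p = 0.0547). Over the 5 cell types of the main comparisons, 6 of 38 tests passed in ctrl against sham (15.8%, against 8.66% of all tests), 14 at an unadjusted p under 0.05 and 6 by DESeq2. Without sham 3 none of the 38 passed by edgeR, and without ctrl day 1, 3 or 7 there were 2, 3 and 2. In treat against sham, 0 of 38 passed by edgeR (against 2.21%), 11 at an unadjusted p under 0.05 and 5 by DESeq2. In treat against ctrl, 0 of 38 passed by edgeR (against 0.00561%), 1 at an unadjusted p under 0.05 and 0 by DESeq2. Over all genes, 13057, 9781, 11692, 10213 and 8740 were tested in BEC-, EC-, fibroblast-, macrophage- and NK&T-like cells. Of these, 3980, 2305, 4066, 3034 and 1902 had an unadjusted p under 0.05 in ctrl against sham. In treat against sham 2828, 1280, 2635, 2374 and 1638 did, and in treat against ctrl 1493, 881, 1625, 372 and 253. Between days 7 and 1, 4360, 2072, 4946, 1323 and 856 did. No DESeq2 share over all genes is given. Between days 7 and 1, 4 of 38 passed (10.5%, against 11.2%).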

How the data were processed

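UMI counts per gene and barcode were deposited by the authors for 20 libraries, without normalization and with empty barcodes included. The matrix headers name Cell Ranger, and the labels list Cell Ranger 5.0.1 and Seurat 3.2.0; the genome build is not given in the sources used here, so no coordinates are printed. Barcodes with 400 genes or fewer, 6000 or more, 25% or more mitochondrial UMIs or 3% or more haemoglobin UMIs were dropped, and the highest doublet scores (above the 92.5 percentile) were removed. Cells were clustered (scanpy 1.11.5, igraph 0.11.9, 2000 variable genes, 30 principal components, Leiden resolution 0.9) and named from marker lists needing at least 3 detected markers. VSMC-like cells took their name from clusters at resolution 2, a rule added after seeing the data.

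Counts were summed per sample and cell type and tested with edgeR 4.0.16 (quasi-likelihood, TMM, filterByExpr, Benjamini-Hochberg over all genes of the cell type, adjusted p under 0.05) in R 4.3.3, in 1 fit of 9 samples with terms for group and day and 4 residual degrees of freedom. A cell type needed at least 20 cells in every sample. Levels between cell types and shares of cells used exact permutation tests (written with numpy 2.4.6). DESeq2 1.42.0, library-size scaling, no filter, no day term, each library as a sample, no doublet removal, subtraction of the empty-barcode profile (100 UMIs or fewer), cells with at least 1000 genes, a finer clustering, single BEC-like clusters, the macrophage-like clusters c6 and c10 alone, and leaving out each sample were tried. Without the day term, days 7 and 1 were compared in a fit of day groups with no term for transplanted group. The fit was tested on simulated data. The genes named were all 10 members, up to 4 called genes a list with the smallest adjusted p, and the 3 genes nearest in pattern. The members and lists were chosen with earlier results of these data known. Library depth was 1461222 to 74486271 UMIs in cells.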

Additional observations from a re-analysis of the deposited data

Results flagged for a closer look

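The mean log2(CPM + 1) of Cdh2, transplanted against sham samples, was 1.19 lower in BEC-like cells and 0.90 higher in fibroblast-like cells, a gap of -2.10. For Twist2 it was 0.99 higher in BEC-like cells and 0.90 lower in fibroblast-like cells, a gap of 1.89. What drew attention to both is that every ctrl and treat sample lay outside the sham range in CPM, on opposite sides in the 2 cell types. On the normalized scale that edgeR used, Cdh2 in BEC-like cells was not so separated. There treat day 3 was at 3.84 CPM and sham 1 at 3.40 CPM. The difference between the cell types was not tested, and the number of other genes with such a pattern was not counted. By edgeR the calls passed in ctrl and not in treat, where the adjusted p of Cdh2 was 0.187 in BEC-like and 0.075 in fibroblast-like cells and that of Twist2 0.167 and 0.0836, and the ctrl calls were lost when single samples were left out. Within the 3 BEC-like clusters the sham and ctrl ranges of Twist2 overlapped. The fibroblast-like clusters were not fitted alone.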

How the results depend on the processing

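Calls rested on few samples and low counts. Each transplanted group had 1 sample a day and the fit 4 residual degrees of freedom, Cdh2 and Twist2 in BEC-like cells had as few as 11 and 2 UMIs a sample, and ctrl day 3 came mostly from 1 library. Sham 1 held 91 fibroblast-like cells, with 7 Cdh2 UMIs. No called gene changed direction in any alternative run. Fits of single BEC-like clusters and of the macrophage-like clusters c6 and c10 were added after the data were seen. The cause of the changes below was not tested, apart from fits with fewer samples. Ctrl and treat samples share days, which the fit carries as a term. No paired analysis was possible because no animal or replicate number is shared between the groups beyond the day, and sham samples carry no day.

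Of 40 neighbouring cell types, 22 pairs were called in all samples, 0 in the sham samples alone (smallest possible p 0.25) and 0 in the transplanted samples alone (smallest possible p 0.0312), after adjustment, and 17 to 21 with 1 sample left out. The Vim share difference of -2.32 points became 0.318 without the BEC-like cells led by Scgb1c1 and Ttr, and ran from -5.53 to -0.453 with 1 sample left out. The 6 calls in ctrl against sham became 2 without a day term and 0 to 10 with 1 sample left out. The 0 calls in treat against sham became 1 with library-size scaling, 5 with DESeq2, 2 with no filter, 1 with each library as a sample, 1 with no doublet removal 1 with Leiden resolution 2 and 1 with BEC-like cluster c2 alone, and 0 to 1 with 1 sample left out. Treat against ctrl stayed at 0 to 0. The 4 calls between days 7 and 1 became 2 with library-size scaling and 2 in a fit of day groups with no term for transplanted group, and 0 to 6 with 1 sample left out.

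Reversed directions concerned uncalled genes. With library-size scaling, log2 values were -0.17 for Cdh1 and -0.16 for Vim in BEC-like cells, treat against sham, and in fibroblast-like cells -0.21 for Snai1 in treat and -0.0236 for Snai1, -0.15 for Twist1 and -0.0493 for Vim in ctrl. Without the Scgb1c1 and Ttr cells Cdh1 was at -0.29 in treat. Without a day term Vim in BEC-like cells was at -0.00852 and Snai2 in fibroblast-like cells at 0.00667 in treat. With the empty-barcode profile subtracted, Vim in BEC-like cells was at -0.0303 in treat and at -0.0856 between days 7 and 1, and Snai1 in fibroblast-like cells at -0.00125 in treat. For Snai1 there the value was -0.0248 with each library as a sample, -0.0453 with no doublet removal and -0.0444 with Leiden resolution 2, under which Twist1 in ctrl was at -0.00306. With no doublet removal Twist1 in BEC-like cells was at -0.19 between the days. In cluster c1 alone Fn1 was at 0.17, Snai1 at -0.78 and Vim at -0.0923 in treat, and Snai1 at -0.14 and Vim at -1.08 between days. In c2 alone Cdh1 was at -0.0697, Snai1 at -0.24 and Vim at -0.28 in treat, Fn1 at 0.33 in ctrl, and Cdh2 at -0.86 and Snai1 at -0.0120 between days, and in c3 alone Vim was at -0.19 in treat.

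With 1 sample left out, the log2 ranges that crossed 0 were, in BEC-like cells, Cdh1 in treat -0.21 to 0.22, Snai1 in treat -0.86 to 0.66, Vim in ctrl -0.63 to 0.0491, in treat -0.39 to 0.24 and between days -0.34 to 0.76, Cdh2 between days -0.23 to 1.15 and Twist1 between days -0.29 to 1.37. In fibroblast-like cells they were those of Cdh1 in ctrl -0.53 to 0.50, in treat -0.36 to 0.78 and between days -0.47 to 1.19, Cdh2 between days -0.0260 to 0.61, Snai1 in treat -0.12 to 0.15 and Snai2 in treat -0.42 to 0.19. Twist1 there ran from -0.36 to 0.56 in ctrl, -0.23 to 0.72 in treat and -0.0909 to 1.11 between days, and Vim from -0.0213 to 0.40 in ctrl and -0.34 to 0.0820 in treat. Over single genes and alternatives, 920 values kept direction and side of the threshold, 61 lost the call, 19 gained it and 59 reversed.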

Other observations

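An unnamed myeloid cluster was led by Ccl24, RGD1559482 and Pf4, followed by Vcan, Prdx5, Fcnb and Slpi. In it 5 of 10 macrophage markers and 3 monocyte markers were detected. This cluster had Fn1 at 859 to 2324 CPM (median 1749) over the 7 samples with at least 20 of its cells. Its Vim was at a median of 5169 CPM and its Zeb2 at a median of 115 CPM. Its Fn1 median was thus above that of every named cell type, although no test was made. The unnamed cluster with tuft cell markers resembled BEC-like cells in Cdh1, at a median of 275 CPM, and in Vim, at 44.7 to 119 CPM. Its Fn1 was lower, at 12.8 CPM over all samples, beside 70.6, 31.2 and 106 CPM in BEC-like clusters c1, c2 and c3. Within BEC-like cells, 3 clusters had median Vim levels of 128, 71.1 and 44.7 CPM, and the one with the lowest Vim had the highest Fn1, at a median of 195 CPM, and the highest Cdh1, at 549 CPM.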
